A study of Homo sapiens with 35 samples.

Results

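The genes described here are 33 listed genes of glucose uptake, glycolysis, lactate production and glycogen metabolism, followed in the established human colorectal carcinoma line HCT116. A gene was measured where a transcript cluster (the probe set of 1 gene on the array) carried its symbol alone, and where several did, the brightest on average was taken. This left 30 of the 33 genes, among 18404 genes tested in all. PGAM1 was left out because its 4 clusters are shared with a second gene, and the lactate transporter genes SLC16A1 and SLC16A3 were not analysed here. Every line carried a short hairpin RNA: against CDK8 (shCDK8), against CDK19 (shCDK19) or a non-target one (shControl). CDK8 and CDK19 are paralogous kinases of the Mediator complex, a coactivator of RNA polymerase II.

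The 35 arrays form 14 groups in 4 experiments. In the hypoxia experiment shCDK8, shCDK19 and shControl cells were kept for 24 h at 1% oxygen, with 2 arrays each. In the glucose experiment shCDK8, shCDK19 and shControl cells were kept for 24 h in low glucose DMEM and shControl cells also in high glucose DMEM, with 3 arrays each. In the normal growth experiment each line was untreated, with 3 arrays each. In the 5FU experiment shCDK8, shCDK19 and shControl cells received 5-fluorouracil, an antimetabolite, for 12 h and shControl cells also DMSO, with 2 arrays each. One line stands for each hairpin, and the labels do not say whether a line is a clone or whether replicates came from separate cultures, so p-values cover the spread among these arrays alone, and that spread may be technical. Each effect of a knockdown is therefore the effect of 1 line.

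As background, glucose enters most cells through facilitative transporters of the SLC2A family and is trapped by hexokinases as glucose 6-phosphate. Glycolysis turns it into pyruvate, with phosphofructokinase as a main point of control, and lactate dehydrogenase or mitochondria take the pyruvate onward. Many genes of this path are known targets of the hypoxia-inducible factors (HIF), and glycogen enzymes store and release the same glucose 6-phosphate. Tumour cells commonly run glycolysis at a high rate even with oxygen.

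The deposited values are log2 values with a floor at 4.32 and a ceiling at 14.29, and no measured member lay at either limit on any array. The share of clusters at the floor ran from 8.48% to 9.97% per array, the 75th percentile of an array from 8.96 to 9.25, and the correlation across clusters of replicate arrays from 0.976 to 0.998. The number of arrays limits the precision. The only cluster of CDK8, which is shared with ADRA1B, had 7.58 to 8.53 on the 10 shCDK8 arrays and 9.79 to 10.95 on the 15 shControl arrays. CDK19 had 6.57 to 8.35 on the 10 shCDK19 arrays and 7.63 to 9.84 on the shControl arrays, so its ranges overlapped across experiments. Of the markers set aside for cell identity, the 5 epithelial ones had medians of 11.27 to 13.11 over all arrays. The 5 endothelial ones lay at 5.17 to 6.40, the 4 measured leukocyte ones at 4.37 to 6.57 and the 5 fibroblast ones at 4.32 to 8.67. The 5 of intestinal epithelium (CDX1, CDX2, VIL1, LGR5 and CEACAM5) lay at 5.00 to 8.86. SLC2A3 is nearly identical in sequence to SLC2A14, and GAPDH, TPI1, PGK1, ENO1, PKM and LDHA have processed pseudogenes, so their values are uncertain to the extent that probes are shared. Values of different genes come from different probes and are not compared with each other as levels.

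Most of the path was higher in hypoxic shControl cells. Of the 30 members 24 were higher and 4 lower in hypoxia than in normal growth at an adjusted p under 0.05, with 47.8% of all tested genes called in that comparison. Upward calls made 21.1% and downward calls 26.7% of all tested genes. The median change over the members was 0.66 on the log2 scale, against 0.06 over all genes. By role, 2 of 2 uptake genes, 2 of 3 hexokinases, 6 of 7 genes of upper glycolysis, 2 of 3 genes of fructose 2,6-bisphosphate metabolism, 5 of 5 of lower glycolysis, 3 of 4 of pyruvate and lactate metabolism and 4 of 6 glycogen genes were higher. Fold changes compare the 2 hypoxic with the 3 untreated shControl arrays and are followed by the log2 change with its standard error. No normoxic array of the hypoxia experiment was analysed here, so oxygen and experiment cannot be told apart in these changes. Since RNA of whole cultures was measured, fewer expressing cells and less RNA per cell cannot be told apart either.

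At the entry of the path, SLC2A3 and HK2 had the largest changes of all members. SLC2A3, which encodes the high-affinity glucose transporter GLUT3, had 11.71 and 11.95 in hypoxic shControl cells and 9.20, 9.04 and 8.97 in untreated ones. The groups lay far apart, and the gene was 6.78-fold higher (2.76 ± 0.094, adjusted p = 4.89e-16). SLC2A14, the near-identical neighbour, was also higher (1.01 ± 0.18, adjusted p = 8.69e-05), and how far shared probes carry 1 gene's change into the other was not tested. SLC2A1, which encodes the widely expressed transporter GLUT1, had 12.87 and 12.77 in hypoxic and 11.71, 11.67 and 11.85 in untreated shControl cells. The groups did not overlap, and SLC2A1 was 2.11-fold higher (1.07 ± 0.052, adjusted p = 2.56e-13). HK2, the inducible mitochondria-bound hexokinase, had 11.94 and 11.99 in hypoxic and 9.42, 9.38 and 9.43 in untreated cells. The replicates were tight against the step between the groups, and HK2 was 5.87-fold higher (2.55 ± 0.10, adjusted p = 3.43e-15). HK1, the housekeeping hexokinase, changed less (0.78 ± 0.081, adjusted p = 4.44e-08), and HKDC1, a further hexokinase-like gene, did not pass the test (0.30 ± 0.15, adjusted p = 0.1).

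In upper glycolysis 6 of 7 genes were higher and PFKM was lower. ALDOC, the aldolase best known from brain, had 12.90 and 12.77 in hypoxic and 10.63, 10.18 and 10.46 in untreated shControl cells. It was 5.31-fold higher (2.41 ± 0.13, adjusted p = 9.77e-13), while ALDOA, the muscle-type aldolase that most proliferating cells use, was 1.25-fold higher (0.32 ± 0.055, adjusted p = 6.68e-05). Of the phosphofructokinase genes, PFKL (liver type) was 1.62-fold higher (0.70 ± 0.069, adjusted p = 2.30e-08) and PFKP (platelet type) 1.50-fold higher (0.59 ± 0.070, adjusted p = 4.24e-07). PFKM, the muscle type, had 10.55 and 10.68 in hypoxic and 10.76, 10.96 and 10.87 in untreated cells. All hypoxic values lay under the untreated ones, and PFKM was 1.19-fold lower (-0.25 ± 0.076, adjusted p = 0.0102). GPI, the isomerase that follows hexokinase, was 1.63-fold higher (0.70 ± 0.065, adjusted p = 8.66e-09), and the triosephosphate isomerase TPI1 changed by 0.24 ± 0.062, adjusted p = 0.00278.

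The PFKFB enzymes make and break down fructose 2,6-bisphosphate, a strong activator of phosphofructokinase. PFKFB4 had 10.06 and 10.63 in hypoxic and 8.30, 8.05 and 8.13 in untreated shControl cells. Both hypoxic arrays were above all untreated ones although they differed from each other more than for most members, and PFKFB4 was 4.55-fold higher (2.19 ± 0.14, adjusted p = 2.17e-11). PFKFB3, the isoform with the strongest kinase activity, was 1.61-fold higher (0.69 ± 0.065, adjusted p = 1.45e-08). PFKFB2, the heart isoform, had 6.80 and 7.10 in hypoxic and 7.24, 7.34 and 7.40 in untreated cells and was 1.30-fold lower (-0.38 ± 0.14, adjusted p = 0.0264).

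All 5 measured genes of lower glycolysis were higher in hypoxic shControl cells, over a wide range of sizes. ENO2, the neuronal enolase, had 12.03 and 12.37 in hypoxic and 10.03, 9.86 and 9.83 in untreated cells. The groups did not overlap, and ENO2 was 4.89-fold higher (2.29 ± 0.092, adjusted p = 8.77e-15). ENO1, the ubiquitous enolase, changed by 0.37 ± 0.053, adjusted p = 4.49e-06. PGK1, the first ATP-forming step of glycolysis, was 1.63-fold higher (0.71 ± 0.058, adjusted p = 1.19e-09). The pyruvate kinase gene PKM (0.25 ± 0.042, adjusted p = 3.35e-05) and GAPDH (0.13 ± 0.042, adjusted p = 0.0129) had small changes. Of all members GAPDH lay nearest to the ceiling, with at most 14.22 on any array, and values near a ceiling can understate a rise.

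PDK1 and PDK3, genes of kinases that hold back the oxidation of pyruvate in mitochondria, were higher as well. PDK1, a kinase that switches off pyruvate dehydrogenase, had 11.55 and 11.76 in hypoxic and 9.57, 9.48 and 9.53 in untreated shControl cells. The groups were clearly apart, and PDK1 was 4.37-fold higher (2.13 ± 0.10, adjusted p = 1.39e-13). PDK3, a related kinase, was 2.35-fold higher (1.23 ± 0.10, adjusted p = 1.83e-09). The lactate dehydrogenase genes moved in opposite directions. LDHA, whose enzyme favours lactate formation, was 1.26-fold higher (0.33 ± 0.056, adjusted p = 3.76e-05). LDHB, whose enzyme favours the reverse reaction, had 12.23 and 12.48 in hypoxic and 12.59, 12.61 and 12.63 in untreated cells. Both hypoxic values were under the untreated ones, and LDHB was 1.19-fold lower (-0.26 ± 0.056, adjusted p = 0.000718).

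Among glycogen genes the branching enzyme GBE1 changed most. It had 10.23 and 10.41 in hypoxic and 8.80, 8.69 and 8.73 in untreated shControl cells. The groups lay well apart, and GBE1 was 3.00-fold higher (1.58 ± 0.11, adjusted p = 4.02e-11). The muscle-type glycogen synthase gene GYS1 was 1.73-fold higher (0.79 ± 0.064, adjusted p = 1.09e-09), the phosphoglucomutase PGM1 1.54-fold higher (0.63 ± 0.083, adjusted p = 1.92e-06) and the liver glycogen phosphorylase PYGL 1.24-fold higher (0.31 ± 0.055, adjusted p = 8.54e-05). PGM2, a phosphopentomutase related to PGM1, had 10.49 and 10.76 in hypoxic and 10.85, 10.84 and 10.86 in untreated cells and was 1.17-fold lower (-0.23 ± 0.073, adjusted p = 0.0157). UGP2, which makes the UDP-glucose used for glycogen, differed between the hypoxic arrays (8.28 and 9.11) and did not pass the test (0.24 ± 0.18, adjusted p = 0.245).

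**Figure D1:**
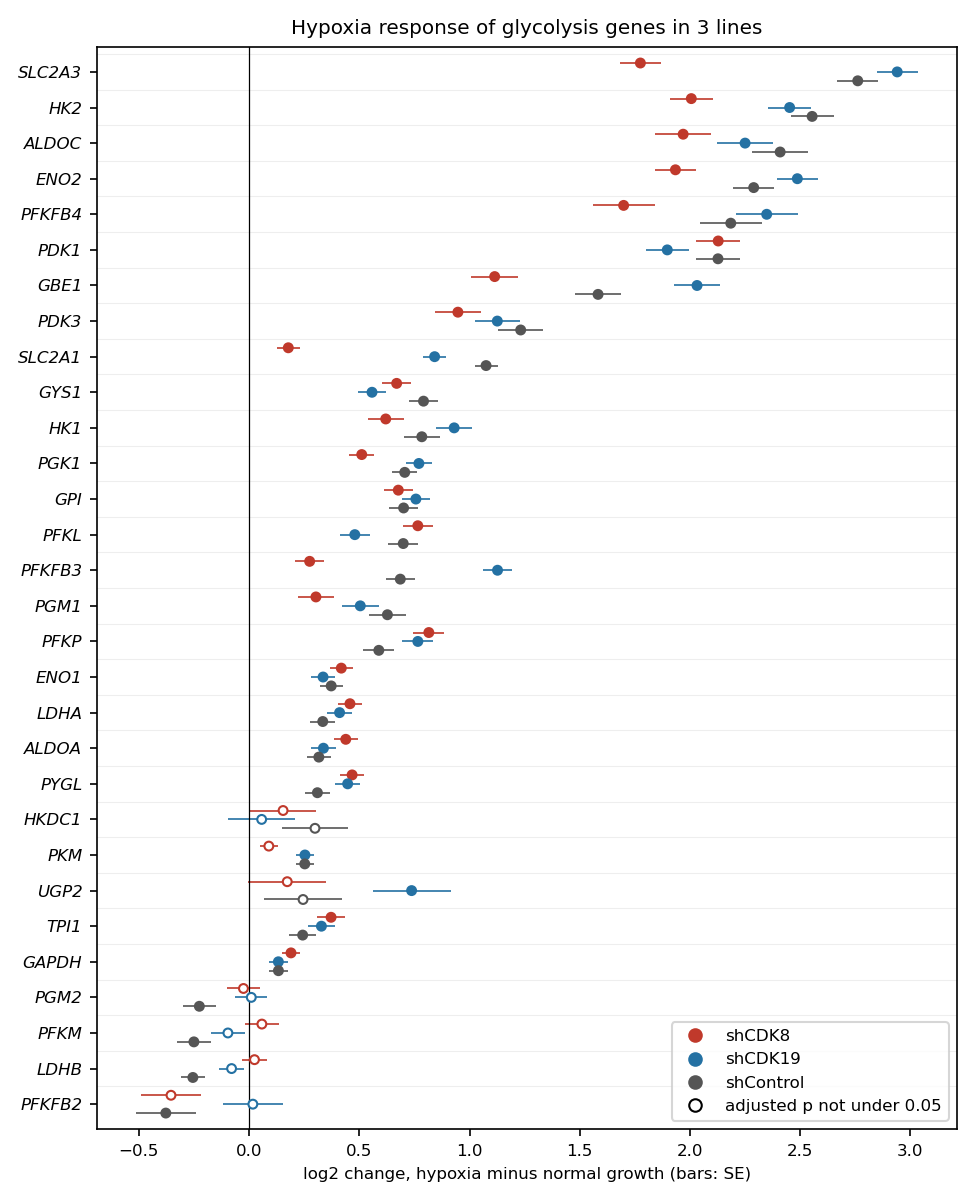
Log2 change of each of the 30 genes in hypoxia against normal growth (x axis, points with standard errors) in shCDK8, shCDK19 and shControl cells, with open points for changes whose adjusted p was not under 0.05. SLC2A3, HK2, ALDOC, ENO2, PFKFB4 and PDK1 lie right of most other genes in all 3 lines, and the shCDK8 points of SLC2A1 and SLC2A3 lie left of the other 2 lines.

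With 1 of the arrays left out, 22 of the 28 calls held whichever array it was. LDHB, PGM2, PFKM, PFKFB2 and GAPDH were lost without shControl hypoxia replicate 1, the array with the lowest 75th percentile of the series (largest adjusted p 0.0958, 0.499, 0.172, 0.383 and 0.0606 over all arrays left out), and TPI1 was lost without shControl hypoxia replicate 2 (0.0582). PFKM and PFKFB2 were also lost without shControl normal growth replicate 2, and PFKFB2 without replicate 3. The hypoxic shControl values were also set beside all 8 unstressed shControl arrays, that is normal growth, DMSO and high glucose. Both hypoxic values lay above all 8 for 23 of the 30 members, which held for 9.04% of all genes, and below all 8 for LDHB alone, where 13.7% of all genes lay below. PFKM and TPI1 lay within the range of the unstressed arrays. HKDC1, PFKFB2, PGM2 and UGP2 overlapped that range, with the higher hypoxic value of HKDC1 above it, the lower values of PFKFB2 and PGM2 below it, and UGP2 with a value on either side.

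Promoter sequences are shown for 4 of the 6 members with the largest hypoxic rise, because HIF is known to bind the core letters ACGTG or GCGTG. Each sequence printed holds such letters. The PDK1 window chosen in the same way holds none and is not printed. Each line gives the 250 bases before a RefSeq gene start (GRCh38.p14), 5′ to 3′ on the gene's strand, and capitals mark ACGTG and GCGTG on either strand (read as CACGT and CACGC on the other). HK2 lies at chr2:74833877-74834126 (plus strand), ALDOC at chr17:28576896-28577145 (minus strand), ENO2 at chr12:6914330-6914579 (plus strand) and PFKFB4 at chr3:48556804-48557053 (minus strand).
HK2: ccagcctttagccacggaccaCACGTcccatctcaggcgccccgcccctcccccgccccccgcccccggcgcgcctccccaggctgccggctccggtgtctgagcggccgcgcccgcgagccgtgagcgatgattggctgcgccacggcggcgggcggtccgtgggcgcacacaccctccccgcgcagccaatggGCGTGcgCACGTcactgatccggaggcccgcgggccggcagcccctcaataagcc
ALDOC: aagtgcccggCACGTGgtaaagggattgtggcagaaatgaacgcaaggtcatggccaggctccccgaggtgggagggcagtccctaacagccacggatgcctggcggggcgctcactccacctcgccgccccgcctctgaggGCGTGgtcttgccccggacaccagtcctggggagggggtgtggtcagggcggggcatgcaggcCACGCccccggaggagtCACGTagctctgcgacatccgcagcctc
ENO2: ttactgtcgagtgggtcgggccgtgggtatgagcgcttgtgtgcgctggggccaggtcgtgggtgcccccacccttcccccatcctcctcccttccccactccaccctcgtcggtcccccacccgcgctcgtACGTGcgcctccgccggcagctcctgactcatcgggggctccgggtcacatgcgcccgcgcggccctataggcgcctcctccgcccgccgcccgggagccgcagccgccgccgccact
PFKFB4: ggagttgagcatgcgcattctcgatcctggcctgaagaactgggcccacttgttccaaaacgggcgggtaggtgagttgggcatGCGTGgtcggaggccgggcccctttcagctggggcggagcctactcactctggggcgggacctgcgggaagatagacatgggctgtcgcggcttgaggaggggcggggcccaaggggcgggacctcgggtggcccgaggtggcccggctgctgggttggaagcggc
The HK2 window holds ACGTG 2 times and GCGTG 1 time, and the window of a second HK2 start holds them 4 and 2 times. The ALDOC window holds ACGTG 3 times and GCGTG 2 times, where the palindrome CACGTG (the E-box bound by MYC and by the carbohydrate response factors) counts as ACGTG on each strand. The ENO2 window holds 1 ACGTG and the PFKFB4 window 1 GCGTG. The more upstream of the PDK1 windows held neither and the other held ACGTG 2 times, and SLC2A3 was not in the promoter table used. Over all 20100 windows of tested genes, 20.3% held ACGTG, 38.5% GCGTG, 49.7% either and 7.4% CACGTG. Of 53 windows of the 28 members in the table, some of them overlapping starts of 1 gene, 39.6% held ACGTG, 35.8% GCGTG, 56.6% either and 13.2% CACGTG. A match describes these letters only.

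The neighbouring pathways had mixed counts in shControl hypoxia. Over all 80 genes of these lists 25 were higher and 28 lower. Of all tested genes 21.1% were called upward and 26.7% downward. Of 12 measured genes for the entry of pyruvate into mitochondria and its oxidation there, 0 were higher and 9 lower by limma (0 higher also at an unadjusted p under 0.05). The list behind this count also names genes that oppose that oxidation, the kinase genes PDK2 and PDK4. Of 7 measured genes of the pentose phosphate pathway 2 were higher and 5 lower. Of 12 measured further isoenzymes of glycolysis 6 were higher and 2 lower. TIGAR, a p53-induced phosphatase that removes fructose 2,6-bisphosphate, had their largest change, a fall (-1.64 ± 0.13, adjusted p = 1.28e-09). Of 9 gluconeogenesis genes 5 were higher and 3 lower, with the largest change in PCK2, the mitochondrial carboxykinase (-1.22 ± 0.084, adjusted p = 6.96e-11). Of 17 measured further glycogen genes 4 were higher and 4 lower, with the largest rise in PPP1R3B, which targets a phosphatase to glycogen (0.84 ± 0.11, adjusted p = 1.86e-06), and of 12 further glucose transporters 4 were higher and 2 lower. Among 11 measured regulators 4 were higher and 3 lower. Of the HIF subunit genes on the list, EPAS1, which encodes HIF-2α, was higher (0.64 ± 0.071, adjusted p = 1.28e-07) and HIF1A lower (-0.68 ± 0.11, adjusted p = 1.87e-05). EPAS1 and HIF1A are named here after their values were seen, and ARNT, also on the list, is not given.

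In both knockdown lines most members were higher in hypoxia too. In shCDK8 cells 23 members were higher and 0 lower in hypoxia than in normal growth by limma (9.10% of all genes called, 3.52% upward and 5.57% downward), and 1 member, PFKFB2, was lower at an unadjusted p under 0.05 (-0.35 ± 0.14, adjusted p = 0.116). In shCDK19 cells 25 members were higher and 0 lower by limma (31.3% called, 11.1% upward and 20.2% downward), and 0 were lower at an unadjusted p under 0.05. The largest changes in shCDK8 cells were those of PDK1 (2.13 ± 0.10, adjusted p = 1.25e-12), HK2 (2.01 ± 0.10, adjusted p = 1.25e-12), ALDOC (1.97 ± 0.13, adjusted p = 1.40e-10), ENO2 (1.93 ± 0.092, adjusted p = 1.25e-12), SLC2A3 (1.77 ± 0.094, adjusted p = 6.13e-12), PFKFB4 (1.70 ± 0.14, adjusted p = 1.34e-08), GBE1 (1.11 ± 0.11, adjusted p = 1.35e-07), PDK3 (0.95 ± 0.10, adjusted p = 1.10e-06), PFKP (0.82 ± 0.070, adjusted p = 2.75e-08) and PFKL (0.77 ± 0.069, adjusted p = 5.56e-08). In shCDK19 cells they were those of SLC2A3 (2.94 ± 0.094, adjusted p = 9.96e-17), ENO2 (2.49 ± 0.092, adjusted p = 1.19e-15), HK2 (2.45 ± 0.10, adjusted p = 4.77e-15), PFKFB4 (2.35 ± 0.14, adjusted p = 3.57e-12), ALDOC (2.25 ± 0.13, adjusted p = 1.29e-12), GBE1 (2.03 ± 0.11, adjusted p = 3.55e-13), PDK1 (1.90 ± 0.10, adjusted p = 3.55e-13), PFKFB3 (1.13 ± 0.065, adjusted p = 2.12e-12), PDK3 (1.13 ± 0.10, adjusted p = 4.86e-09) and HK1 (0.93 ± 0.081, adjusted p = 1.87e-09). LDHB, lower in hypoxic shControl cells, did not pass in shCDK8 (0.02 ± 0.056, adjusted p = 0.901) or shCDK19 cells (-0.08 ± 0.056, adjusted p = 0.332). With 1 array left out, 19 of the 23 calls in shCDK8 cells held and 23 of the 25 in shCDK19 cells. In shCDK8 cells SLC2A1 was lost without any 1 of the 5 arrays, PGM1 without either hypoxia array or normal growth replicate 3, PFKFB3 without either hypoxia array and GAPDH without hypoxia replicate 1, at largest adjusted p-values of 0.281, 0.137, 0.0882 and 0.0645. In shCDK19 cells GAPDH was lost without hypoxia replicate 1 and UGP2 without replicate 2, at adjusted p-values of 0.156 and 0.0509. Of the 12 genes for the entry and oxidation of pyruvate in mitochondria 1 was higher and 4 were lower in shCDK8 cells, and 6 were lower in shCDK19 cells. Over all 80 genes of the neighbouring lists 7 were higher and 10 lower in shCDK8 cells, with SLC2A14 (0.91 ± 0.18, adjusted p = 0.00159) and EPAS1 (0.64 ± 0.071, adjusted p = 1.30e-06) highest and TIGAR (-0.51 ± 0.13, adjusted p = 0.0162) and SLC2A6, a lysosomal transporter (-0.51 ± 0.11, adjusted p = 0.00395), lowest. In shCDK19 cells 10 were higher and 21 lower, with PPP1R3B (1.64 ± 0.11, adjusted p = 3.05e-11) and EPAS1 (1.03 ± 0.071, adjusted p = 3.62e-11) highest and TIGAR (-1.52 ± 0.13, adjusted p = 2.59e-09) and G6PC3, a glucose 6-phosphatase (-0.996 ± 0.069, adjusted p = 3.95e-11), lowest.

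Within hypoxia, shCDK8 cells differed from shControl cells in 6 members, 2 higher and 4 lower, with 7.30% of all genes called, 4.81% upward. SLC2A1 had 13.72 and 13.66 in shCDK8 and 12.87 and 12.77 in shControl hypoxia. The values did not overlap, and SLC2A1 was 1.83-fold higher (0.87 ± 0.080, adjusted p = 0.0112). HK2 had 10.75 and 10.71 in shCDK8 and 11.94 and 11.99 in shControl hypoxia. Both shCDK8 values were lower, and HK2 was 2.35-fold lower (-1.23 ± 0.095, adjusted p = 0.00812). ALDOC had 11.96 and 11.93 in shCDK8 and 12.90 and 12.77 in shControl hypoxia and was 1.85-fold lower (-0.89 ± 0.082, adjusted p = 0.0115). SLC2A3, at 11.27 and 11.21 in shCDK8 and 11.71 and 11.95 in shControl hypoxia, was 1.50-fold lower (-0.59 ± 0.11, adjusted p = 0.0463). PDK3 was lower (-0.61 ± 0.11, adjusted p = 0.0485) and PGM1 higher (0.68 ± 0.075, adjusted p = 0.0166). These calls rest on 2 arrays per group: without either shCDK8 array 0 of the 6 passed (largest adjusted p between 0.13 for HK2 and 0.289 for PDK3), and PDK3 was also lost without shControl hypoxia replicate 1. No change turned its sign. In 1 fit of all 35 arrays, which shares its spread over more arrays, 15 members passed. Of the neighbouring lists, TIGAR (2.11 ± 0.13, adjusted p = 0.00564) and PYGB, the brain-type glycogen phosphorylase (1.37 ± 0.16, adjusted p = 0.0194), were higher and EPAS1 lower (-1.19 ± 0.091, adjusted p = 0.00812) in shCDK8 than in shControl hypoxia, among 4 higher and 1 lower of 80 genes.

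In shCDK19 hypoxia 0 members differed from shControl at an adjusted p under 0.05 by limma, with 0.228% of all genes called and 0.0326% downward, and 5 members had an unadjusted p under 0.05. The members with the smallest p were SLC2A1, at 13.39 and 13.37 in shCDK19 and 12.87 and 12.77 in shControl hypoxia (0.56 ± 0.080, adjusted p = 0.11), and PFKFB3, at 10.90 and 11.00 in shCDK19 and 10.26 and 10.46 in shControl hypoxia (0.59 ± 0.10, adjusted p = 0.138). For both genes the groups did not overlap, which says little on its own with 2 arrays per group. Without shControl hypoxia replicate 2, 6 members passed, and 6 passed in 1 fit of all arrays. Between the knockdown lines in hypoxia, 1 member was higher in shCDK8 than in shCDK19 cells and 7 were lower (12.4% of all genes called, 7.26% upward and 5.09% downward): PGM1 higher (0.49 ± 0.075, adjusted p = 0.0232) and HK2 (-1.32 ± 0.095, adjusted p = 0.00609), ALDOC (-0.997 ± 0.082, adjusted p = 0.00797), SLC2A3 (-0.92 ± 0.11, adjusted p = 0.0144), GBE1 (-0.76 ± 0.10, adjusted p = 0.0167), PFKFB3 (-0.66 ± 0.10, adjusted p = 0.0242), PDK3 (-0.62 ± 0.11, adjusted p = 0.0356) and HK1 (-0.51 ± 0.088, adjusted p = 0.0309) lower. With each array's median subtracted the split was 0 higher and 8 lower. Without any 1 of the 4 arrays 0 members passed (largest adjusted p between 0.106 for HK2 and 0.238 for PDK3), and 17 passed in 1 fit of all arrays. Both lines were compared with the same shControl arrays.

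**Figure D2:**
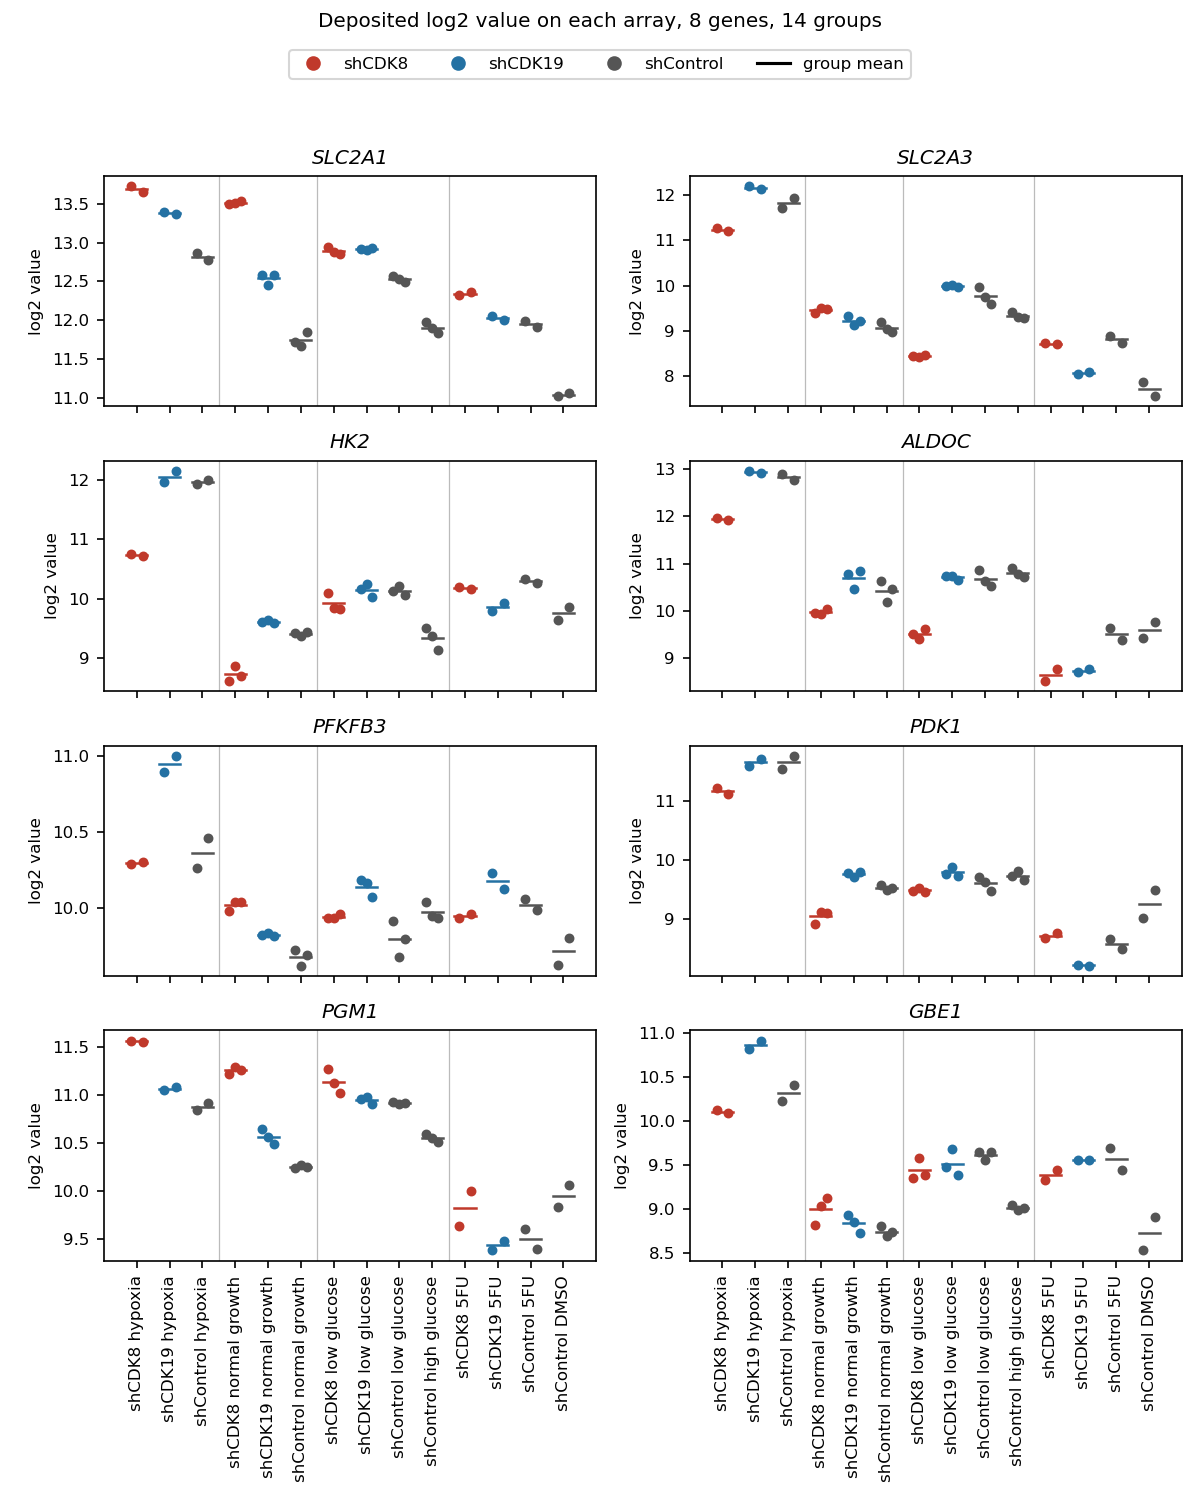
Deposited log2 value on each array (points) and group mean (lines) of 8 genes in the 14 groups, ordered from hypoxia to normal growth, glucose and 5FU. SLC2A1 lies above shControl in each shCDK8 group, with its highest values of 13.50 to 13.72 in shCDK8 cells in normal growth and hypoxia, and HK2, ALDOC, PDK1 and SLC2A3 have their highest values in hypoxia in every line.

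The difference of the knockdown effect between hypoxia and normal growth was tested directly for each line. For shCDK8 it passed for 6 members, 5 lower and 1 higher in hypoxia (11.5% of all genes called, 9.06% upward, and 0 higher and 6 lower members with medians subtracted). SLC2A1 had 13.50, 13.50 and 13.53 in untreated shCDK8 and 11.71, 11.67 and 11.85 in untreated shControl cells, a wider gap than the one under hypoxia. The difference of the effects was -0.90 ± 0.074, adjusted p = 3.75e-08. SLC2A3 had 9.40, 9.50 and 9.49 in untreated shCDK8 and 9.20, 9.04 and 8.97 in untreated shControl cells. It was thus above shControl in normal growth and below it in hypoxia, a difference of -0.99 ± 0.13, adjusted p = 4.00e-05. HK2 had 8.62, 8.87 and 8.70 in untreated shCDK8 and 9.42, 9.38 and 9.43 in untreated shControl cells, and its deficit was larger under hypoxia (-0.55 ± 0.14, adjusted p = 0.0101). PFKFB3 had 10.29 and 10.30 in shCDK8 and 10.26 and 10.46 in shControl hypoxia, and 9.98, 10.04 and 10.04 in untreated shCDK8 and 9.72, 9.62 and 9.69 in untreated shControl cells. The groups overlapped in hypoxia and were apart in normal growth (-0.41 ± 0.093, adjusted p = 0.00476). GBE1 had 10.12 and 10.09 in shCDK8 and 10.23 and 10.41 in shControl hypoxia, and 8.82, 9.03 and 9.13 in untreated shCDK8 and 8.80, 8.69 and 8.73 in untreated shControl cells. The shCDK8 values were lower in hypoxia and all higher in normal growth (-0.47 ± 0.15, adjusted p = 0.0434). LDHB, the only member called with a positive difference (0.28 ± 0.079, adjusted p = 0.0212), had 12.56 and 12.44 in shCDK8 and 12.23 and 12.48 in shControl hypoxia, and 12.37, 12.54 and 12.52 in untreated shCDK8 and 12.59, 12.61 and 12.63 in untreated shControl cells. LDHB and GBE1 lost the call with 1 array left out (largest adjusted p 0.258 and 0.112), LDHB without shControl hypoxia replicate 1, shCDK8 hypoxia replicate 1 or shCDK8 normal growth replicate 1, and GBE1 without any 1 of the 10 arrays except shCDK8 normal growth replicate 1. Without shControl hypoxia replicate 2 the count was 10.

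For shCDK19 the difference between hypoxia and normal growth passed for 1 member, PFKFB3 (2.08% of all genes called). It had 10.90 and 11.00 in shCDK19 and 10.26 and 10.46 in shControl hypoxia, and 9.82, 9.83 and 9.81 in untreated shCDK19 and 9.72, 9.62 and 9.69 in untreated shControl cells. The gap was wider in hypoxia, by 0.44 ± 0.093, adjusted p = 0.0131. It was lost without shCDK19 hypoxia replicate 2 or shControl hypoxia replicate 1 (largest adjusted p 0.115), and the count was 2 without shControl normal growth replicate 3 and 10 without shControl hypoxia replicate 2.

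Low glucose gave a split response in shControl cells. Against high glucose, 6 members were higher and 12 lower (31.2% of all genes called, 13.9% upward and 17.3% downward), and the median change was -0.11, against 0.02 over all genes. With each array's median subtracted 8 were higher and 8 lower. By role, 2 of 2 uptake genes, 2 of 3 hexokinases and 2 of 6 glycogen genes were higher, while 4 of 7 genes of upper glycolysis, 3 of 5 of lower glycolysis, 2 of 4 of pyruvate and lactate metabolism, 1 of 3 of fructose 2,6-bisphosphate metabolism and 2 of 6 glycogen genes were lower.

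HKDC1 rose most in low glucose, with 7.24, 7.28 and 7.54 in low and 6.39, 6.26 and 6.20 in high glucose. The groups did not overlap, and HKDC1 was 2.10-fold higher (1.07 ± 0.11, adjusted p = 4.15e-05). HK2 had 10.13, 10.21 and 10.06 in low and 9.51, 9.38 and 9.13 in high glucose and was 1.74-fold higher (0.80 ± 0.11, adjusted p = 0.00024). SLC2A1 had 12.56, 12.53 and 12.49 in low and 11.97, 11.89 and 11.84 in high glucose and was 1.54-fold higher (0.63 ± 0.043, adjusted p = 3.94e-06). All low glucose values of these genes were above all high glucose values. GBE1, the glycogen branching enzyme, had 9.65, 9.56 and 9.64 in low and 9.04, 8.99 and 9.01 in high glucose and was 1.52-fold higher (0.60 ± 0.079, adjusted p = 0.000233). SLC2A3 had 9.96, 9.74 and 9.60 in low and 9.41, 9.31 and 9.29 in high glucose, with a wider spread in low glucose, and was 1.35-fold higher (0.43 ± 0.078, adjusted p = 0.00175). PGM1 had 10.93, 10.90 and 10.92 in low and 10.59, 10.55 and 10.52 in high glucose and was 1.29-fold higher (0.36 ± 0.057, adjusted p = 0.000761).

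PDK3 fell most, to 8.90, 8.83 and 8.98 in low glucose, against 9.67, 9.78 and 9.74 in high glucose. It was 1.77-fold lower (-0.82 ± 0.084, adjusted p = 4.45e-05), whereas PDK1 did not pass (-0.13 ± 0.066, adjusted p = 0.181). ENO2 had 9.61, 9.43 and 9.29 in low and 10.00, 9.95 and 9.85 in high glucose and was 1.40-fold lower (-0.49 ± 0.079, adjusted p = 0.000883). PFKM had 10.24, 10.26 and 10.29 in low and 10.70, 10.61 and 10.52 in high glucose and was 1.27-fold lower (-0.35 ± 0.052, adjusted p = 0.000539). The groups of these genes did not overlap. LDHA had 12.80, 12.77 and 12.64 in low and 13.04, 13.04 and 13.06 in high glucose and was 1.24-fold lower (-0.31 ± 0.044, adjusted p = 0.000449). PGM2 had 10.45, 10.34 and 10.41 in low and 10.66, 10.69 and 10.76 in high glucose and was 1.23-fold lower (-0.30 ± 0.052, adjusted p = 0.00134). PFKL had 9.91, 9.84 and 9.81 in low and 10.17, 10.07 and 10.08 in high glucose and was 1.19-fold lower (-0.25 ± 0.047, adjusted p = 0.00238). Again no low glucose value reached the high glucose values. GYS1 (-0.24 ± 0.043, adjusted p = 0.0018), PGK1 (-0.24 ± 0.038, adjusted p = 0.000805), GPI (-0.23 ± 0.072, adjusted p = 0.0339), TPI1 (-0.18 ± 0.043, adjusted p = 0.00835), PFKFB3 (-0.18 ± 0.060, adjusted p = 0.0451) and ENO1 (-0.15 ± 0.040, adjusted p = 0.0171) were lower by less. The low and high glucose values of GPI overlapped. GPI, TPI1, PFKFB3 and ENO1 did not pass with each array's median subtracted. GPI, PFKFB3 and ENO1 also lost the call without shControl low glucose replicate 3 or high glucose replicate 1 or 2, and GPI and PFKFB3 without low glucose replicate 2, at a largest adjusted p of 0.116, 0.157 and 0.0674, and PFKFB3 without high glucose replicate 3 as well. ALDOC, HK1, PFKP, PFKFB2, PFKFB4, ALDOA, GAPDH, PKM, LDHB, PYGL and UGP2 did not pass, with changes between -0.25 and 0.29.

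**Figure D3:**
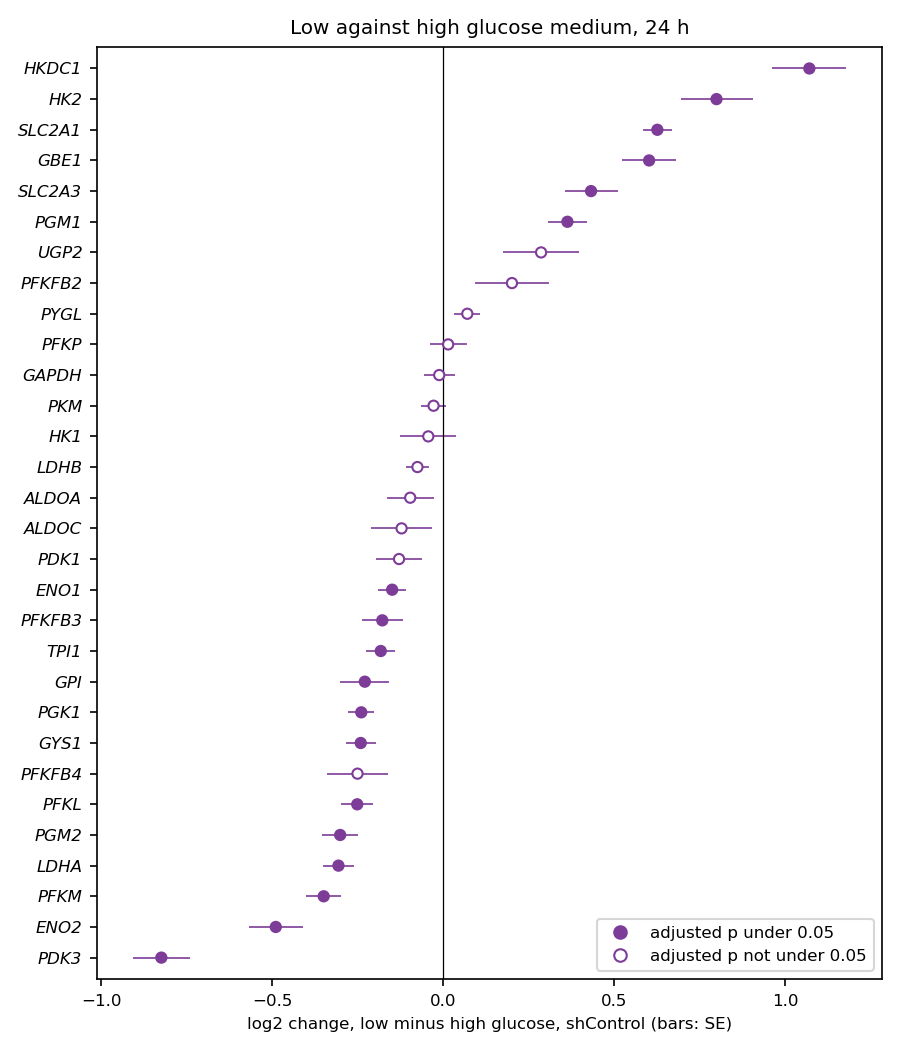
Log2 change of each of the 30 genes in shControl cells in low against high glucose medium after 24 h (x axis, points with standard errors), with open points for changes whose adjusted p was not under 0.05. HKDC1, HK2, SLC2A1, GBE1, SLC2A3 and PGM1 lie on the right and PDK3 and ENO2 farthest on the left.

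Of the regulators, ARRDC4, an arrestin gene known to be driven by the glucose sensing factor MondoA (MLXIP) and to restrain glucose uptake, was 2.26-fold lower (-1.18 ± 0.12, adjusted p = 3.47e-05) in low glucose. Its relative TXNIP did not pass (-0.04 ± 0.086, adjusted p = 0.786). Of the 11 measured regulators 3 were higher and 2 lower. PYGB was higher (0.84 ± 0.048, adjusted p = 1.16e-06), among 3 higher and 4 lower of 17 further glycogen genes, and PCK2 was higher (0.71 ± 0.064, adjusted p = 2.07e-05), among 2 higher and 2 lower of 9 gluconeogenesis genes. SLC2A13, a proton-coupled inositol transporter of the family, was lower (-0.85 ± 0.072, adjusted p = 1.40e-05), among 1 higher and 3 lower of 12 transporters. Of 12 genes for the entry and oxidation of pyruvate 3 were lower. Of 7 pentose phosphate genes 2 were higher and of 12 further isoenzymes 1, and none of these lists had a call in the other direction. Over all 80 genes of these lists 12 were higher and 14 lower. Of all tested genes 13.9% were called upward and 17.3% downward.

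In low glucose, shCDK8 cells had 4 members higher and 3 lower than shControl cells (22.3% of all genes called, 10.2% downward, and 3 higher and 4 lower members with medians subtracted). SLC2A3 had 8.45, 8.42 and 8.46 in shCDK8 and 9.96, 9.74 and 9.60 in shControl low glucose. The shCDK8 values were also under those of shControl cells in high glucose (9.41, 9.31 and 9.29), and SLC2A3 was 2.50-fold lower (-1.32 ± 0.078, adjusted p = 1.39e-06). ALDOC had 9.51, 9.40 and 9.60 in shCDK8 and 10.87, 10.62 and 10.52 in shControl low glucose. The groups did not overlap, and ALDOC was 2.25-fold lower (-1.17 ± 0.089, adjusted p = 9.14e-06). SLC2A1 had 12.94, 12.88 and 12.85 in shCDK8 and 12.56, 12.53 and 12.49 in shControl low glucose and was 1.29-fold higher (0.36 ± 0.043, adjusted p = 0.000204). PGM1 (0.22 ± 0.057, adjusted p = 0.0176), PFKL (0.19 ± 0.047, adjusted p = 0.0164) and PYGL (0.13 ± 0.038, adjusted p = 0.0401) were slightly higher and PKM slightly lower (-0.12 ± 0.037, adjusted p = 0.0454). These smaller calls were lost with 1 array left out (largest adjusted p 0.0565, 0.0647, 0.138 and 0.152), each of the 6 arrays taking the call from at least 1 of them: 4 members passed without shCDK8 low glucose replicate 3 and 3 without shControl low glucose replicate 2. Outside the members, SLC5A1, the sodium-coupled glucose transporter SGLT1, was 7.34-fold higher (2.88 ± 0.13, adjusted p = 2.22e-07) in shCDK8 low glucose. PYGB was higher (0.65 ± 0.048, adjusted p = 7.19e-06). Of 12 genes for the entry and oxidation of pyruvate 5 were lower, with MPC2, a subunit of the mitochondrial pyruvate carrier (-0.53 ± 0.067, adjusted p = 0.000267), among them. SLC2A14, looked up after the value of SLC2A3 was seen, changed by -0.46 ± 0.048, adjusted p = 7.80e-05.

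In shCDK19 cells in low glucose 8 members were higher and 1 lower than in shControl cells (19.9% of all genes called, 9.11% upward and 10.8% downward). SLC2A1 had 12.92, 12.90 and 12.93 in shCDK19 low glucose, all above the shControl values, and was 1.31-fold higher (0.39 ± 0.043, adjusted p = 0.000184). PFKFB3 had 10.18, 10.16 and 10.07 in shCDK19 and 9.91, 9.67 and 9.80 in shControl low glucose and was 1.27-fold higher (0.35 ± 0.060, adjusted p = 0.0027). PDK3 (0.31 ± 0.084, adjusted p = 0.0251), PFKL (0.28 ± 0.047, adjusted p = 0.00231), PFKM (0.19 ± 0.052, adjusted p = 0.0258), LDHA (0.19 ± 0.044, adjusted p = 0.0135), PGM2 (0.18 ± 0.052, adjusted p = 0.0313) and GYS1 (0.15 ± 0.043, adjusted p = 0.0394) were higher by less, and PYGL was lower (-0.17 ± 0.038, adjusted p = 0.0095). PDK3, PFKM, PGM2 and GYS1 lost the call with 1 array left out (largest adjusted p 0.0898, 0.0939, 0.11 and 0.135), each of the 6 arrays taking it from at least 1 of them, and 5 members passed without shCDK19 low glucose replicate 2. ARRDC4 was 1.66-fold higher (0.73 ± 0.12, adjusted p = 0.00161) and TXNIP 1.28-fold higher (0.36 ± 0.086, adjusted p = 0.0158) in shCDK19 low glucose. In shCDK8 low glucose ARRDC4 changed by 0.43 ± 0.12, adjusted p = 0.0236 and TXNIP by 0.04 ± 0.086, adjusted p = 0.799.

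Set against each other in low glucose, shCDK8 cells had 3 members higher and 8 lower than shCDK19 cells (26.0% of all genes called, 14.7% upward and 11.2% downward). SLC2A3 was 2.93-fold lower (-1.55 ± 0.078, adjusted p = 4.57e-07) and ALDOC 2.31-fold lower (-1.21 ± 0.089, adjusted p = 7.25e-06). PFKM (-0.34 ± 0.052, adjusted p = 0.000931), PDK3 (-0.32 ± 0.084, adjusted p = 0.0182), PDK1 (-0.31 ± 0.066, adjusted p = 0.00683), PGM2 (-0.20 ± 0.052, adjusted p = 0.0168), PFKFB3 (-0.20 ± 0.060, adjusted p = 0.0337) and PKM (-0.18 ± 0.037, adjusted p = 0.00545) were lower, and PYGL (0.30 ± 0.038, adjusted p = 0.000284), HKDC1 (0.34 ± 0.11, adjusted p = 0.0413) and PGM1 (0.19 ± 0.057, adjusted p = 0.0306) higher. SLC2A1 did not pass, at -0.03 (95% interval -0.12 to 0.07). PGM2, PDK3, PGM1, PFKFB3 and HKDC1 lost the call with 1 array left out (largest adjusted p between 0.0634 for PGM2 and 0.139 for HKDC1), each of the 6 arrays taking it from at least 1 of them, and 7 members passed without replicate 1 of either line.

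The effect of shCDK8 in low glucose differed from its effect in normal growth for 10 members, 4 upward and 6 downward (12.8% of all genes called, 7.78% upward and 5.06% downward). These differences also span experiments and media, DMEM against the usual growth medium of the lines. SLC2A3 moved most: shCDK8 cells were below shControl in low glucose and above it in normal growth, a difference of -1.72 ± 0.12, adjusted p = 2.84e-10. SLC2A1 was above shControl in both, by less in low glucose (-1.40 ± 0.066, adjusted p = 4.46e-13). PGM1 had 11.27, 11.12 and 11.03 in shCDK8 and 10.93, 10.90 and 10.92 in shControl low glucose, and 11.22, 11.30 and 11.26 in untreated shCDK8 and 10.24, 10.27 and 10.24 in untreated shControl cells. The gap was wider in normal growth (-0.78 ± 0.11, adjusted p = 9.01e-06). ALDOC had 9.96, 9.94 and 10.04 in untreated shCDK8 and 10.63, 10.18 and 10.46 in untreated shControl cells, a smaller deficit than in low glucose (-0.72 ± 0.16, adjusted p = 0.00298). HK2 had 10.10, 9.85 and 9.82 in shCDK8 and 10.13, 10.21 and 10.06 in shControl low glucose. These overlapped, unlike the untreated groups (0.47 ± 0.12, adjusted p = 0.0107). GBE1 had 9.35, 9.58 and 9.39 in shCDK8 and 9.65, 9.56 and 9.64 in shControl low glucose (-0.43 ± 0.13, adjusted p = 0.0348), and its call was lost without any 1 of 8 of the 12 arrays, the exceptions being replicate 1 of both untreated groups and replicate 2 of both low glucose groups (largest adjusted p 0.104). PKM had a negative difference (-0.30 ± 0.053, adjusted p = 0.000282), and PGM2 (0.40 ± 0.093, adjusted p = 0.00394), PFKP (0.36 ± 0.089, adjusted p = 0.0069) and PYGL (0.28 ± 0.070, adjusted p = 0.00717) positive ones. For shCDK19 the difference passed for 1 member (1.79% of all genes called): SLC2A1 was above shControl in both conditions, by less in low glucose (-0.40 ± 0.066, adjusted p = 0.000819).

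The responses of shControl cells to low glucose and to hypoxia compare groups without common arrays and were set side by side. The spread behind the hypoxia calls came from the fit of all arrays, including those of the glucose experiment. The calls for hypoxia and for low glucose are therefore not fully independent. SLC2A1, SLC2A3, HK2, PGM1 and GBE1 were higher in both, 16.7% of the members, against 3.42% of all genes. GPI, PFKL, PFKFB3, TPI1, PGK1, ENO1, ENO2, LDHA, PDK3 and GYS1 were lower in low glucose and higher in hypoxia, 33.3% of the members, against 1.72% of all genes. PFKM and PGM2 were lower in both (6.67% of the members, 8.85% of all genes), and 0 members were higher in low glucose and lower in hypoxia, against 4.16% of all genes. With the median of each array subtracted, the 10 members lower in low glucose and higher in hypoxia became 6, PFKL, PGK1, ENO2, LDHA, PDK3 and GYS1 (1.62% of all genes). On that scale HKDC1 and PYGL joined the members higher in both, 7 in all (7.13% of all genes), and PFKM alone was lower in both (6.14% of all genes). Across the 30 members the changes correlated with r = 0.124, and across all 18404 genes with r = 0.254, a description of genes that share probes, cells and arrays. The opposite pair of PDK3 and HK2 shows the split: HK2 was above its comparison group under both stresses, while PDK3 was higher in hypoxia and lower in low glucose.

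**Figure D4:**
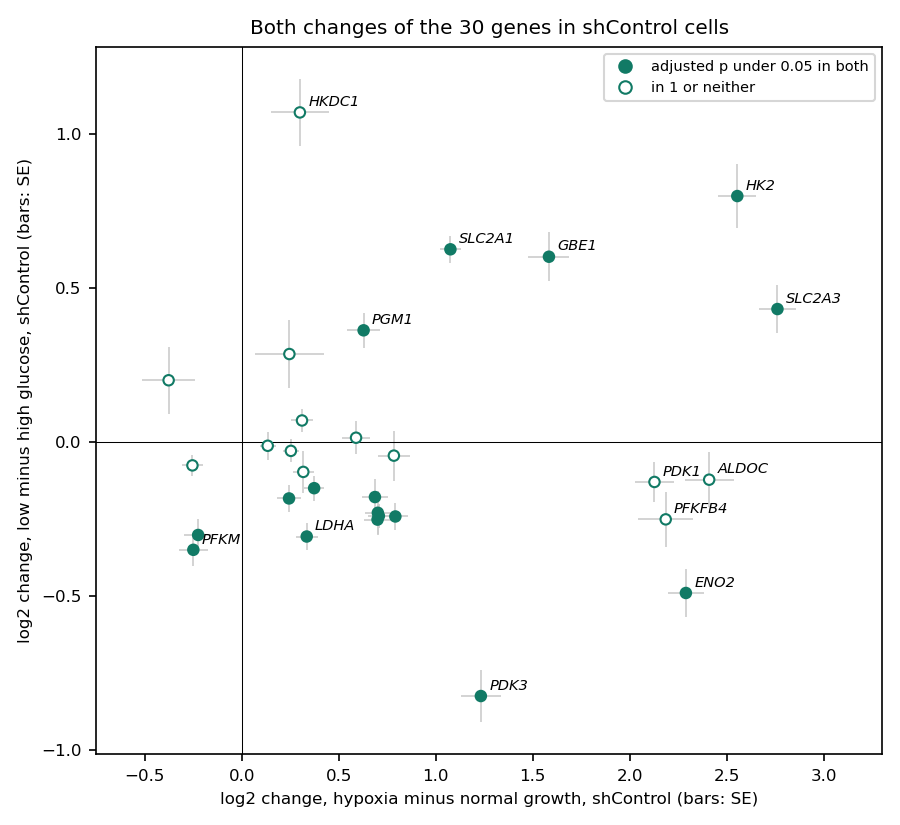
Log2 change of each of the 30 genes in shControl cells in hypoxia against normal growth (x axis) and in low against high glucose (y axis), with standard errors, filled where the adjusted p was under 0.05 in both. SLC2A1, SLC2A3, HK2, PGM1 and GBE1 lie in the upper right, and ENO2 and PDK3 in the lower right.

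In normal growth shCDK8 cells had 5 members higher and 9 lower than shControl cells, with calls in every role. Of all genes 24.9% were called, 11.4% upward and 13.5% downward. With medians subtracted 5 members were higher and 6 lower. SLC2A1 was 3.40-fold higher (1.77 ± 0.057, adjusted p = 1.12e-06), PGM1 2.01-fold higher (1.01 ± 0.048, adjusted p = 8.34e-06), SLC2A3 1.32-fold higher (0.40 ± 0.077, adjusted p = 0.0075), PFKFB3 1.27-fold higher (0.34 ± 0.039, adjusted p = 0.000569) and PKM 1.13-fold higher (0.18 ± 0.039, adjusted p = 0.0119). HK2 was 1.60-fold lower (-0.68 ± 0.064, adjusted p = 0.000229), PDK1 1.40-fold lower (-0.49 ± 0.064, adjusted p = 0.00116), ALDOC 1.36-fold lower (-0.45 ± 0.13, adjusted p = 0.0425), PGM2 1.34-fold lower (-0.42 ± 0.059, adjusted p = 0.00162) and PDK3 1.25-fold lower (-0.33 ± 0.10, adjusted p = 0.0486). PFKP, HK1, GPI and PYGL were lower by 0.16 to 0.26 on the log2 scale. PDK1 had 8.90, 9.12 and 9.10 in shCDK8 and 9.57, 9.48 and 9.53 in shControl cells, without overlap. With 1 array left out 7 calls held in every fit. ALDOC, PDK3, PFKP, HK1, GPI, PYGL and PKM were lost (largest adjusted p between 0.0519 for PKM and 0.163 for PYGL), each of the 6 arrays taking the call from at least 1 of them, and the count was 9 without shCDK8 replicate 3 or shControl replicate 1 and 8 without shControl replicate 2. EPAS1 was lower (-1.18 ± 0.048, adjusted p = 3.70e-06) and TIGAR higher (0.99 ± 0.15, adjusted p = 0.00209), and 6 of 12 genes for the entry and oxidation of pyruvate were lower.

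In shCDK19 cells in normal growth 2 members were higher and 0 lower than in shControl cells (7.07% of all genes called, 3.67% upward, and 8 members at an unadjusted p under 0.05). SLC2A1 had 12.59, 12.46 and 12.57 in shCDK19 and 11.71, 11.67 and 11.85 in shControl cells. It was 1.74-fold higher (0.80 ± 0.057, adjusted p = 0.00028), and PGM1, at 10.65, 10.56 and 10.49 in shCDK19 and 10.24, 10.27 and 10.24 in shControl cells, was 1.24-fold higher (0.31 ± 0.048, adjusted p = 0.0081). Neither pair of groups overlapped, and both calls held with any array left out. ARRDC4 was 3.06-fold higher (1.61 ± 0.070, adjusted p = 2.04e-05). Compared directly, shCDK8 cells had 4 members higher and 10 lower than shCDK19 cells, or 3 and 8 with medians subtracted. Of all genes 26.1% were called, 12.9% upward and 13.2% downward. SLC2A1 (0.97 ± 0.057, adjusted p = 2.71e-05), PGM1 (0.69 ± 0.048, adjusted p = 5.33e-05), PFKFB3 (0.20 ± 0.039, adjusted p = 0.00782) and PKM (0.13 ± 0.039, adjusted p = 0.0393) were higher, and HK2 (-0.88 ± 0.064, adjusted p = 7.22e-05), PDK1 (-0.72 ± 0.064, adjusted p = 0.000188), ALDOC (-0.72 ± 0.13, adjusted p = 0.00575), PDK3 (-0.44 ± 0.10, adjusted p = 0.0146) and PGM2 (-0.39 ± 0.059, adjusted p = 0.00238) led the lower ones. Of the 14 calls 7 held with any array left out, each of the 6 arrays taking the call from at least 1 of the others, PDK3 and PKM among them (largest adjusted p 0.0521 and 0.133), and without shCDK19 replicate 1 the count was 9.

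After 5-fluorouracil 4 members were higher and 2 lower in shControl cells than after DMSO (11.5% of all genes called, 7.17% upward). SLC2A3 had 8.88 and 8.74 after 5-fluorouracil and 7.87 and 7.56 after DMSO and was 2.14-fold higher (1.10 ± 0.11, adjusted p = 0.00643). SLC2A1 had 11.99 and 11.92 after 5-fluorouracil and 11.02 and 11.06 after DMSO and was 1.88-fold higher (0.91 ± 0.052, adjusted p = 0.00166). The groups of both genes were apart. GBE1 (0.85 ± 0.15, adjusted p = 0.0221) and HK2 (0.55 ± 0.088, adjusted p = 0.0189) were higher, and PDK1 (-0.68 ± 0.16, adjusted p = 0.0482) and ENO2 (-0.48 ± 0.079, adjusted p = 0.02) lower. SLC2A1, SLC2A3, HK2 and GBE1 were thus higher in shControl cells under low glucose, hypoxia and 5-fluorouracil, 13.3% of the members, while 0.565% of all genes were. These 5-fluorouracil calls rest on 2 arrays per group: 1 member passed without shControl 5FU replicate 1 and 2 passed without replicate 2, and SLC2A1 alone kept its call with any array left out (largest adjusted p 0.0588 for SLC2A3, 0.117 for HK2, 0.125 for GBE1, 0.2 for PDK1 and 0.111 for ENO2). TIGAR, lower in hypoxia, was 4.18-fold higher (2.06 ± 0.13, adjusted p = 0.00215) after 5-fluorouracil, and ARRDC4 was 2.19-fold higher (1.13 ± 0.16, adjusted p = 0.0153).

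Under 5-fluorouracil shCDK8 cells had 1 member higher and 1 lower than shControl cells (3.50% of all genes called). SLC2A1, at 12.33 and 12.36 in shCDK8 and 11.99 and 11.92 in shControl cells, was 1.31-fold higher (0.39 ± 0.052, adjusted p = 0.0224), and ALDOC, at 8.51 and 8.77 in shCDK8 and 9.63 and 9.37 in shControl cells, was 1.81-fold lower (-0.86 ± 0.15, adjusted p = 0.0495). Neither pair of groups overlapped. In shCDK19 cells 0 members passed by limma (0.837% of all genes called, 6 members at an unadjusted p under 0.05). SLC2A3, at 8.05 and 8.09 in shCDK19 and 8.88 and 8.74 in shControl cells (-0.74 ± 0.11, adjusted p = 0.0572), and ALDOC, at 8.69 and 8.76 in shCDK19 and 9.63 and 9.37 in shControl cells (-0.77 ± 0.15, adjusted p = 0.111), had the smallest p of the members, and neither pair of groups overlapped. Lack of overlap says little on its own with 2 arrays per group. Compared directly, SLC2A3 (0.65 ± 0.11, adjusted p = 0.0351) and SLC2A1 (0.31 ± 0.052, adjusted p = 0.0323) were higher in shCDK8 than in shCDK19 cells and 0 members lower (5.14% of all genes called). Without any 1 of the arrays compared, 0 members passed for shCDK8 against shControl and against shCDK19 (largest adjusted p 0.147 and 0.216 for SLC2A1).

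Across the conditions SLC2A1 was above shControl in shCDK8 cells in all 4 experiments, by 0.87 ± 0.080 in hypoxia, 1.77 ± 0.057 in normal growth, 0.36 ± 0.043 in low glucose and 0.39 ± 0.052 under 5-fluorouracil. ALDOC was below shControl in shCDK8 cells in all 4, by log2 changes of -0.89 ± 0.082, -0.45 ± 0.13, -1.17 ± 0.089 and -0.86 ± 0.15 in the same order. With any array left out, the ALDOC call held in low glucose only, and that of SLC2A1 in normal growth and low glucose only. In shCDK19 cells the ALDOC mean was below shControl only under 5-fluorouracil, at 8.725 against 9.497, which did not pass. SLC2A3 had no common direction, with -0.59 ± 0.11, 0.40 ± 0.077, -1.32 ± 0.078 and -0.09 ± 0.11. HK2 had -1.23 ± 0.095 and -0.68 ± 0.064 in hypoxia and normal growth, against -0.21 ± 0.11 in low glucose and -0.12 ± 0.088 under 5-fluorouracil, of which the last 2 did not pass. In shCDK19 cells SLC2A1 passed in normal growth and low glucose (0.80 ± 0.057 and 0.39 ± 0.043) and not in hypoxia or under 5-fluorouracil (0.56 ± 0.080 and 0.07 ± 0.052). Over all 35 arrays GAPDH ran between 13.82 and 14.22, ENO1 between 13.28 and 13.85, TPI1 between 12.54 and 13.21 and PKM between 12.64 and 13.32. HK1 ran between 8.51 and 9.69, PGK1 between 12.24 and 13.31 and GPI between 12.25 and 13.64, while SLC2A3 ran between 7.56 and 12.20, ALDOC between 8.51 and 12.96 and HK2 between 8.62 and 12.15.

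**Figure D5:**
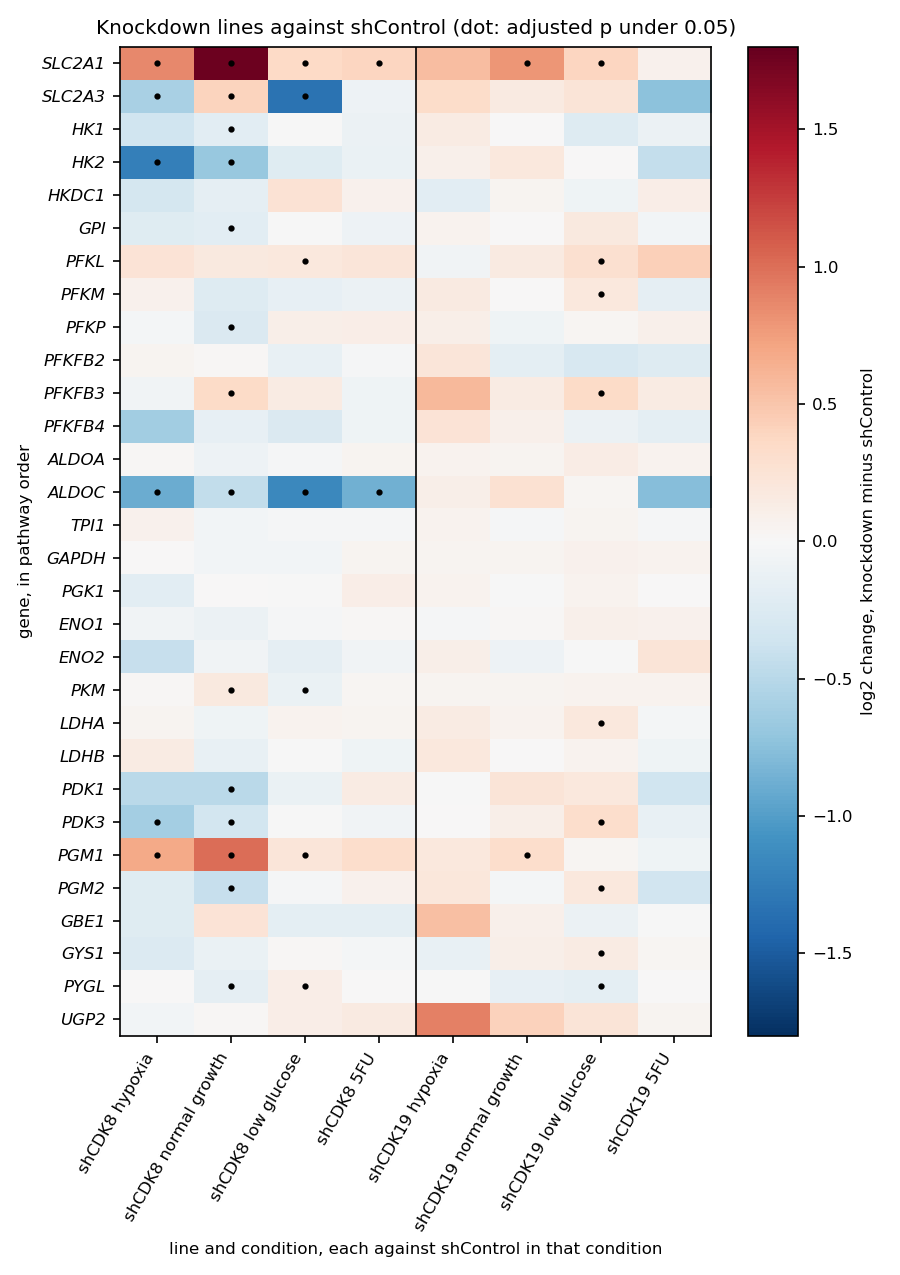
Log2 change of each of the 30 genes (rows) in shCDK8 and shCDK19 cells against shControl cells of the same condition (columns), in colour, with a dot where the adjusted p was under 0.05. SLC2A1 is higher and ALDOC lower in all 4 shCDK8 columns, and the shCDK19 columns have dots in normal growth and low glucose only.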

How the data were processed

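RNA of the 35 samples was hybridised to Affymetrix Human Gene 1.0 ST arrays. The deposited values are log2 values per transcript cluster, and the submitters' processing notes name Partek without a version; the normalisation is not given in the sources used here. Of 32321 clusters, 19158 carried 1 gene symbol, 1388 several and 11775 none, by the platform annotation supplied with the series. The brightest cluster on average stood for each of the 637 genes with several, and 18404 genes were tested.

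Comparisons within an experiment were fitted with limma 3.58.1 (R 4.3.3, lmFit and eBayes) on the arrays of that experiment. Hypoxia against normal growth and the differences between effects came from 1 fit of all 35 arrays. Benjamini-Hochberg adjustment ran over all 18404 genes, with a threshold of 0.05, and errors are standard errors of the fit. The fits were tested on simulated data. Effects of the lines in 1 condition share the shControl arrays of that condition, and the direct comparisons share the arrays of the lines.

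The members, roles and pathway lists were chosen with earlier results of these data known. Values are given for up to 10 members with the largest called changes each way in the glucose and hypoxia experiments and 5 elsewhere (2 with the smallest p where none was called), and values on every array for the 6 largest each way in shControl cells and for differences of effects. Up to 2 other pathway genes each way are named per comparison, and ARRDC4 and TXNIP in the glucose experiment. The alternatives were a filter on dim genes, the replicate number as a block, leaving out each array, the mean of all clusters of a gene, 1 fit of all arrays or only those compared, array medians subtracted, a trend in the prior variance and no moderation. No array pair held identical values. Promoter sequences are RefSeq's for GRCh38.p14. Sequence windows and figures used pandas 2.3.3, numpy 2.4.6 and matplotlib 3.10.9.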

Additional observations from a re-analysis of the deposited data

Results flagged for a closer look

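Differences between the effects of a knockdown under stress and in normal growth passed the test for the following members, each from 1 limma fit of all arrays and each across experiments.

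For shCDK8 in hypoxia minus normal growth, SLC2A1 differed by -0.90 ± 0.074, adjusted p = 3.75e-08, SLC2A3 by -0.99 ± 0.13, adjusted p = 4.00e-05, HK2 by -0.55 ± 0.14, adjusted p = 0.0101, PFKFB3 by -0.41 ± 0.093, adjusted p = 0.00476, GBE1 by -0.47 ± 0.15, adjusted p = 0.0434 and LDHB by 0.28 ± 0.079, adjusted p = 0.0212. For shCDK19 in hypoxia minus normal growth, PFKFB3 differed by 0.44 ± 0.093, adjusted p = 0.0131, in the direction opposite to that of shCDK8. For shCDK8 in low glucose minus normal growth, the transporters SLC2A1 (-1.40 ± 0.066, adjusted p = 4.46e-13) and SLC2A3 (-1.72 ± 0.12, adjusted p = 2.84e-10) had the largest differences. PGM1 differed by -0.78 ± 0.11, adjusted p = 9.01e-06, ALDOC by -0.72 ± 0.16, adjusted p = 0.00298, GBE1 by -0.43 ± 0.13, adjusted p = 0.0348 and PKM by -0.30 ± 0.053, adjusted p = 0.000282. HK2 (0.47 ± 0.12, adjusted p = 0.0107), PGM2 (0.40 ± 0.093, adjusted p = 0.00394), PFKP (0.36 ± 0.089, adjusted p = 0.0069) and PYGL (0.28 ± 0.070, adjusted p = 0.00717) differed upward. For shCDK19 in low glucose minus normal growth, SLC2A1 differed by -0.40 ± 0.066, adjusted p = 0.000819.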

How the results depend on the processing

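No called change of a member turned its sign under any alternative. The hypoxic counts against normal growth moved little: with 1 array left out they ran from 24 to 28 in shControl, from 19 to 23 in shCDK8 and from 24 to 25 in shCDK19 cells, and the low glucose count from 15 to 18. PGM2 lost its hypoxic call in shControl cells with array medians subtracted. TPI1 lost it with the mean of its 2 clusters, and PFKM lost it against the mean of shControl normal growth, DMSO and high glucose, an alternative chosen after seeing the data, which kept 27 calls.

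Counts of called members with 1 array left out ran, within hypoxia, from 0 to 8 for shCDK8 against shControl, from 0 to 6 for shCDK19 against shControl, and were 0 for shCDK8 against shCDK19 in every fit. In low glucose they ran from 3 to 7, from 5 to 10 and from 7 to 10 in that order, in normal growth from 8 to 12, 2 throughout and from 9 to 17, and under 5FU they were 0 throughout for the 3 comparisons of lines and 1 to 7 for shControl against DMSO. For the differences they ran from 4 to 10 and from 0 to 10 in hypoxia (shCDK8, shCDK19) and from 9 to 11 and 1 throughout in low glucose.

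One fit of all arrays gave, within hypoxia, 15 members for shCDK8 against shControl, 6 for shCDK19 against shControl and 17 for shCDK8 against shCDK19, and under 5FU 12 against DMSO, 6 for shCDK19 against shControl and 6 for shCDK8 against shCDK19. Without variance moderation, the ordinary one-way model, the counts were 3 for shCDK8 against shCDK19 in hypoxia, 3 for 5FU against DMSO, 1 for shCDK8 against shControl and 0 for shCDK8 against shCDK19 under 5FU. A trend in the prior variance gave 1 for shCDK19 against shControl and 13 for shCDK8 against shCDK19 in hypoxia. For shCDK19 against shControl under 5FU, 2 passed with medians subtracted and 2 with the filter on dim genes. The shCDK19 difference in hypoxia gave 0 with only the arrays compared. The cause of these moves was not tested.

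Deviations of arrays from their group mean were correlated between same-numbered arrays of different groups. They correlated above 0.1 in 2 of 9 pairs in normal growth and 2 of 6 in hypoxia. In the glucose experiment it was 2 of 18 pairs and in the 5FU experiment 6 of 12. In groups of 2 arrays the 2 deviations mirror each other, so each such correlation counts for both numbers. Deviations correlated best with their own number in 17 of 36 comparisons in the glucose and 8 of 18 in the normal growth experiment. These values do not settle whether the replicate numbers pair the arrays. With the replicate number as a block, 3 members passed for shCDK8 against shControl and 4 for shCDK8 against shCDK19 in hypoxia, 9 for shCDK8 against shCDK19 in normal growth, and 0 for shCDK8 against shControl and 0 for shCDK8 against shCDK19 under 5FU. The hypoxia and 5FU groups hold 2 arrays each, which limits their precision.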
